A study of Mus musculus with 9 samples.

Results

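The genes described are p53 targets and damage checkpoint genes. These are Trp53 itself, the regulators of its protein, and genes listed as its targets or as damage checkpoint genes. Their roles lie in cell cycle arrest, cell death, metabolism and repair. They were taken by symbol from a fixed list of 31 names, of which 30 were found among the 13795 genes of the table. Bbc3, the BH3-only protein PUMA, was not analysed here. RNA sequencing was done on heart tissue of C57BL/6 mice, in 5 samples given 10 mg/kg oxaliplatin and 4 samples given vehicle, collected after 8 weeks of treatment. RNA with an integrity number above 8 was used, per the series' design text. The dosing schedule and the animals' age and sex are not stated in the labels.

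Oxaliplatin is a platinum drug used against cancer, and its platinum centre forms adducts and crosslinks on DNA. Damage of this kind is sensed by the kinases ATM and ATR, which act through CHK2 and CHK1 and stabilise p53, a transcription factor otherwise kept low by the ubiquitin ligase MDM2 and its partner MDM4. Stabilised p53 binds a sequence built from a pair of 10-letter decamers and raises genes that stop the cell cycle (Cdkn1a), promote cell death (Bax, Pmaip1, Fas), limit growth signalling (Sesn1, Sesn2) or feed back on p53 (Mdm2, Ccng1). Most cardiomyocytes of the adult heart do not divide, and the tissue also holds endothelial cells, fibroblasts, macrophages and blood. In whole tissue, fewer cells of a type and less RNA per cell cannot be told apart.

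The proximal promoters of these genes were searched for the p53 decamer. RefSeq windows on GRCm38.p6, which run from 250 bases before to 50 bases after a transcription start, were found for 23 of the 30 measured genes. The labels name no build for the deposited table, which may differ from that of these windows. The p53 decamer was searched as RRRCWWGYYY, where R is A or G, W is A or T and Y is C or T. Only full matches were counted and put in capitals, so the capitals need not mark the element that p53 binds. The decamer reads the same as a pattern on both strands. It was found for 10 of the 23 genes (43.5%), against 9.55% of all 27025 genes with such a window. Most genes of the list were listed as p53 targets beforehand, so these shares are a description and not a test. Cdkn1a was the one gene on the list with a pair of fully matching decamers at most 13 bases apart, a pattern in 0.074% of genes. It is shown whole, with the decamers in capitals, because Cdkn1a had the highest fold change but one of the list.

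Cdkn1a promoter (chr17:29090729-29091028, + strand): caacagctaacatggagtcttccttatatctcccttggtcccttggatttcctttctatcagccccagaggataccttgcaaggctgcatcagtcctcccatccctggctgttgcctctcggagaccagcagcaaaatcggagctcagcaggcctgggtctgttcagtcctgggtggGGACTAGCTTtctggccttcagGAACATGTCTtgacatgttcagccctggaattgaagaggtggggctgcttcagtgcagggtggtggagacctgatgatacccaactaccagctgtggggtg

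This window belongs to the upstream of 2 RefSeq starts of Cdkn1a, which lie 2790 bases apart. The window of the downstream start held no decamer, and the decamers above begin 2863 and 2841 bases before that start. The stretches below show the decamer in capitals with up to 20 bases on each side, for genes that rose, for Gadd45a, which fell, and for genes that did not pass.
Bax (chr7:45467070-45467119, - strand): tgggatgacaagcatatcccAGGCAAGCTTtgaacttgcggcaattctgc
Trp53 (chr11:69580264-69580313, + strand): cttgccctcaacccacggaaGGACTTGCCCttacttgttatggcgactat
Polk (chr13:96519389-96519437, - strand): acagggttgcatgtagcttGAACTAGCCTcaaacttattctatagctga
Gadd45a (chr6:67037418-67037467, - strand): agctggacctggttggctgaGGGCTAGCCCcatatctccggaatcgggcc
Mdm2 (chr10:117710915-117710964, - strand): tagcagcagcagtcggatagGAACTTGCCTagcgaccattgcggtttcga
Ccng1 (chr11:40755442-40755491, - strand): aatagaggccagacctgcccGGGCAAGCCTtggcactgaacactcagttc
Sesn1 (chr10:41887246-41887295, + strand): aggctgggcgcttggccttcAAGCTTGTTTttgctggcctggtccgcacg
Ei24 (chr9:36797315-36797364, - strand): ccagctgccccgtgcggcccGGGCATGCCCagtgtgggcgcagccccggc
Aen (chr7:78895917-78895966, + strand): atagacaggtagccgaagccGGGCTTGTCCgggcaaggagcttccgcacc
A decamer was present for 4 of the 9 genes with a window that rose, for the 1 that fell and for 5 of the 13 that did not pass. A match of letters is a description of the window and not evidence of binding, and sites outside these windows were not searched. Windows of Perp, Pmaip1, Ptp4a3, Rrm2b, Tnfrsf10b, Trp53inp1 and Zmat3 were not used here.

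The comparison of oxaliplatin with vehicle asked which heart transcripts differ after the drug, and the series' title ties its cardiac toxicity to energy metabolism. Of the 30 measured genes 12 rose, 1 fell and 17 did not pass. The 12 were Psrc1, Cdkn1a, Pmaip1, Trp53inp1, Eda2r, Zmat3, Phlda3, Bax, Sesn2, Polk, Fas and Trp53, and Gadd45a fell. Genes that passed had a limma adjusted p under 0.05, with adjustment over the 13788 genes tested. Over all genes tested 9.23% rose and 5.03% fell, and 40% of the list rose. The members were chosen with earlier results of these data known, so this excess is a description and not a test. The list had a median log2 fold change of 0.45, against -0.02 for all genes, and 21 of its 30 genes had positive values, against 47.7% of all genes. Fold changes are on the scale of log2(normalized count + 1), which understates the change of low genes.

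Single samples weighed on the number that rose. It was 7 without oxaliplatin 5, where Phlda3, Sesn2, Eda2r, Fas and Polk did not pass, and 15 without oxaliplatin 2. Trp53, Bax, Zmat3, Trp53inp1, Psrc1 and Gadd45a passed in each alternative setting in which they were tested, which was 20 for each but Psrc1 and 19 for Psrc1, whose mean is too low for the strictest filter. Cdkn1a, Pmaip1 and these 6 passed when any 1 sample was left out.

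**Figure D1:**
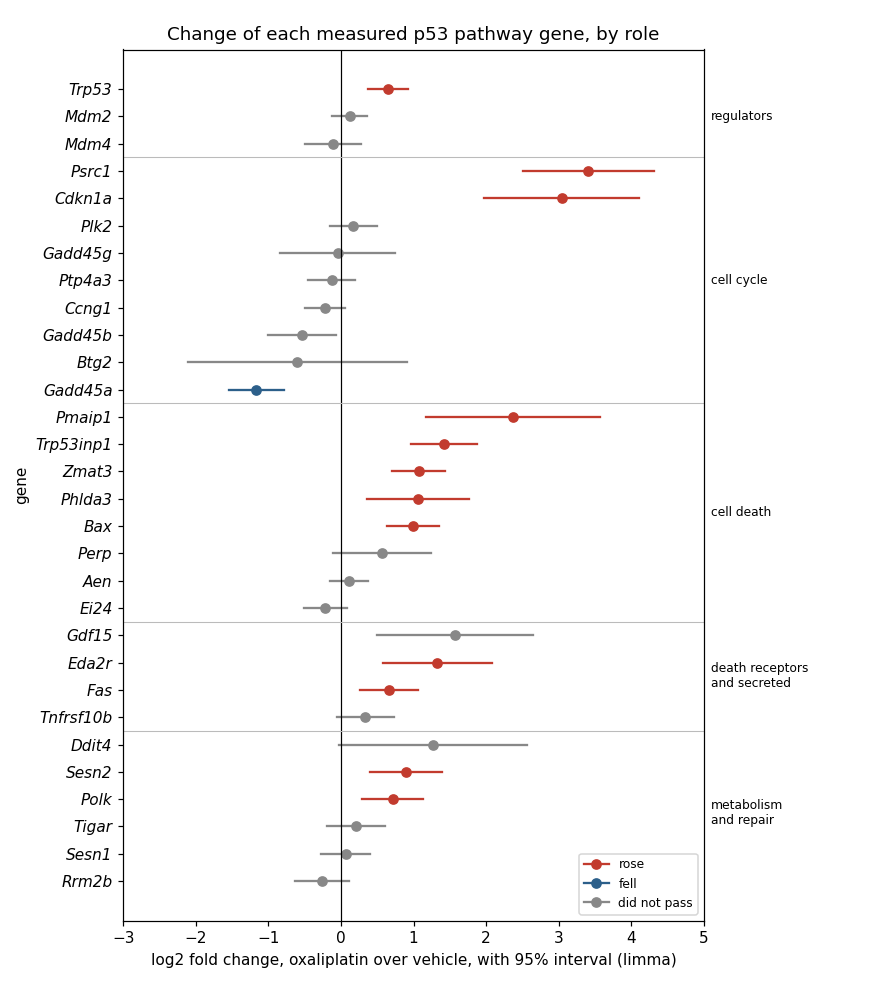
Log2 fold change of oxaliplatin over vehicle (x axis) for the 30 measured genes (y axis), grouped by role, with points for the limma estimate, bars for its 95% interval, red for genes that rose, blue for the gene that fell and grey for genes that did not pass. Psrc1 (3.40) and Cdkn1a (3.04) lie farthest to the right, Gadd45a (-1.17) is the one blue point, and Mdm2, Mdm4, Ccng1 and Sesn1 lie close to 0.

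Among the regulators, Trp53 rose while neither of the genes for its inhibitors passed. Trp53 (chromosome 11, from 69580359 to 69591873 in GENCODE M21 on GRCm38) had 1672, 1299, 1693, 1751 and 1503 normalized counts in oxaliplatin samples 1 to 5, against 1204, 1046, 833 and 972 in vehicle samples 1 to 4. All oxaliplatin samples lay above all vehicle samples, and within each group the highest value was less than 1.5 times the lowest (limma log2 fold change 0.65 ± 0.13 SE, adjusted p = 0.0062). Groups that do not overlap were found for 11 genes of the list in the higher direction, against 8.99% of all genes tested, and for 1 in the lower direction, against 5.93%.

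Mdm2, which encodes the ligase that degrades p53 and is itself a p53 target, had 1019, 1118, 1069.6, 887 and 1139 normalized counts in oxaliplatin samples 1 to 5, against 938, 908, 1112 and 901 in vehicle samples 1 to 4. The groups overlapped, with oxaliplatin 4 below every vehicle sample, and the 95% interval of the log2 fold change was -0.12 to 0.36 (estimate 0.12, limma adjusted p = 0.527). Mdm4, an inhibitor of p53 activity related to MDM2, had 443 to 689.6 normalized counts in oxaliplatin samples, against 473 to 858 in vehicle samples, with an interval of -0.50 to 0.27. The lowest Mdm4 value was that of oxaliplatin 1 and the highest that of vehicle 4, so the groups overlapped almost in full.

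Of 9 cell cycle genes 2 rose, 1 fell and 6 did not pass, while 9.23% of all genes rose and 5.03% fell. Cdkn1a, which encodes the cyclin-dependent kinase inhibitor p21, rose 8.22-fold. It had 7913, 1789.6, 3564, 4823 and 6581 normalized counts in oxaliplatin samples 1 to 5, against 299, 543, 576 and 854 in vehicle samples 1 to 4. The lowest oxaliplatin value, that of sample 2, was above the highest vehicle value, that of sample 4, and values within the oxaliplatin group spanned 4.42-fold. Means were 4934 ± 2417 normalized counts in oxaliplatin samples and 568 ± 227 in vehicle samples (SD, n = 5 and n = 4), and the change passed (limma log2 fold change 3.04 ± 0.47 SE, adjusted p = 0.0048). Cdkn1a and Mdm2 are both well-known p53 targets. The change of one relative to the other was described by the log2 ratio of both within a sample. That ratio averaged 2.07 ± 0.892 in oxaliplatin samples and -0.853 ± 0.647 in vehicle samples (SD, n = 5 and n = 4), a difference of 2.92. The groups did not overlap (two-sided exact permutation test over 126 splits, p = 0.0159, 0.0317 after Benjamini-Hochberg adjustment over 4 such ratios). The pair was chosen after its values were seen, so this p is descriptive and not an independent test. The smallest p that this design allows is 0.00794. With 1 oxaliplatin sample left out, 4 samples against 4, it is 0.0286 before adjustment, so a lost call there says little about stability. The difference was 3.004, 2.83 and 2.81 without oxaliplatin 3, 4 and 5 (adjusted p = 0.0571 each in the exact test) and 2.66 without vehicle 1 (adjusted p = 0.0714).

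Psrc1, which encodes a spindle protein that binds microtubules and is a p53 target as well as a gene of dividing cells, had the largest fold change of the list, 10.6-fold. It had 88.4, 62.5, 122, 122 and 152 normalized counts in oxaliplatin samples 1 to 5, against 15.5, 4.47, 5.38 and 16.1 in vehicle samples 1 to 4. The groups lay far apart, with the lowest oxaliplatin value in sample 2 (limma log2 fold change 3.40 ± 0.42 SE, adjusted p = 8.39e-04). Genes of cell division moved with it. Of 26 proliferation markers 23 rose (88.5%, against 9.23% of all genes), with a median log2 fold change of 2.85. Their summed level was 3264 to 9753 normalized counts in oxaliplatin samples and 2219 to 2477 in vehicle samples. Ccng1, a cyclin that responds to p53 and recruits a phosphatase to MDM2, did not follow Psrc1 or Cdkn1a. It had 11279, 10221, 10275, 8666 and 11031 normalized counts in oxaliplatin samples 1 to 5, against 10925, 12764, 13764 and 10555 in vehicle samples 1 to 4. Values overlapped, and 3 oxaliplatin samples lay below every vehicle sample. The interval of its log2 fold change was -0.49 to 0.05 (estimate -0.22, limma adjusted p = 0.272).

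**Figure D2:**
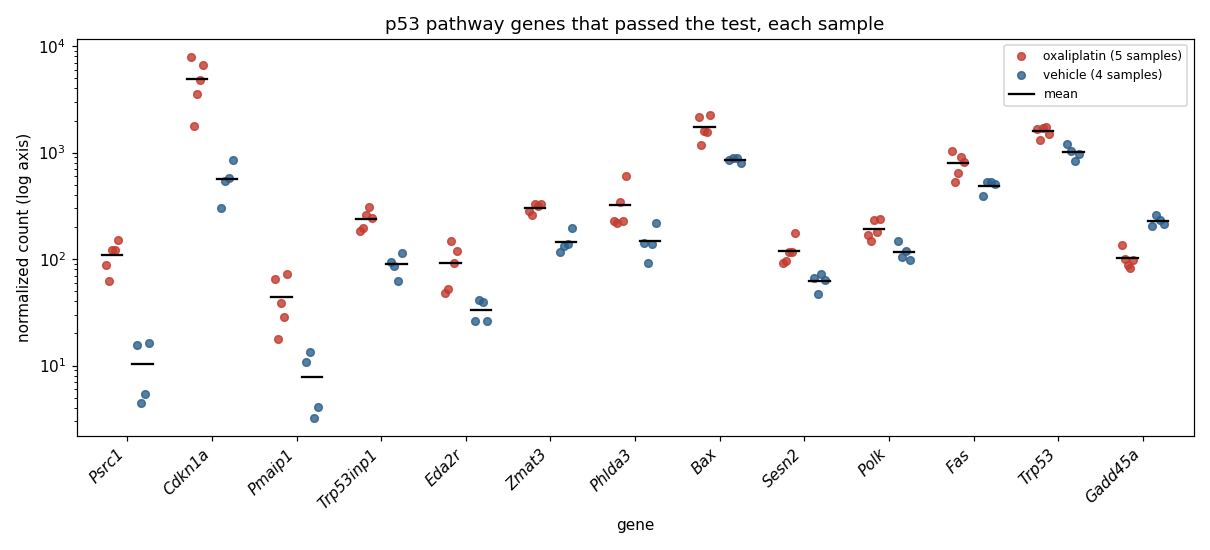
Normalized counts on a log axis (y) of the 13 genes that passed (x), with red points for the 5 oxaliplatin samples, blue points for the 4 vehicle samples and black bars for group means. The groups are apart for each gene but Fas, where oxaliplatin 2 lies just below vehicle 2, and Gadd45a is the one gene with oxaliplatin below vehicle.

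The Gadd45 genes encode small stress proteins that bind PCNA, p21 and stress kinases, and none of the 3 rose. Gadd45a (chromosome 6, from 67035096 to 67037457 in GENCODE M21 on GRCm38) had 136, 100.3, 88.4, 82.8 and 99.0 normalized counts in oxaliplatin samples 1 to 5, against 203, 258, 231 and 212 in vehicle samples 1 to 4. The highest oxaliplatin value lay below the lowest vehicle value, and Gadd45a fell to 44.5% of its vehicle level on the fitted scale (limma log2 fold change -1.17 ± 0.18 SE, adjusted p = 0.00159). Gadd45b had 163, 95.1, 143, 147 and 162 normalized counts in oxaliplatin samples 1 to 5, against 179, 264, 145 and 248 in vehicle samples 1 to 4. These values overlapped, and the test did not pass (limma log2 fold change -0.54 ± 0.22 SE, adjusted p = 0.119). Gadd45g had 815, 1285, 578, 762 and 637 normalized counts in oxaliplatin samples 1 to 5, against 363, 1098, 1032 and 1038 in vehicle samples 1 to 4. Vehicle 1 lay far below the other vehicle samples, and the 95% interval of the Gadd45g log2 fold change was -0.84 to 0.75 (limma adjusted p = 0.949).

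The log2 ratio of Gadd45a to Gadd45g averaged -2.96 ± 0.46 in oxaliplatin samples and -1.84 ± 0.675 in vehicle samples (SD, n = 5 and n = 4; difference -1.12, two-sided exact permutation p = 0.00794, adjusted p = 0.0317). The difference was -1.19, -1.06 and -1.19 without oxaliplatin 3, 4 and 5, where the exact test again cannot go below 0.0286 before adjustment (adjusted p = 0.0571 each). It was -0.79 without vehicle 1 (adjusted p = 0.0893). For Gadd45a to Gadd45b the difference of log2 ratios was -0.63 and did not pass (exact permutation p = 0.0556, adjusted p = 0.0556). It passed without oxaliplatin 2 (difference -0.77, adjusted p = 0.0381). Both pairs of Gadd45 genes were chosen after their values were seen, so these p-values are descriptive.

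The other genes of the cell cycle did not pass. Plk2, a polo-like kinase of centriole duplication, had 1673 to 2059 normalized counts in oxaliplatin samples, against 1329 to 2209.6 in vehicle samples, and the phosphatase gene Ptp4a3 had 2732 to 4763 normalized counts in oxaliplatin samples, against 3762 to 4159 in vehicle samples. The oxaliplatin samples of Plk2 all lay within the range of the vehicle samples. Btg2, an antiproliferative gene that is also switched on within minutes by many stimuli, had 2304, 7940.5, 5563, 2935 and 2278 normalized counts in oxaliplatin samples 1 to 5, against 1561, 11051, 7602 and 7449.6 in vehicle samples 1 to 4. Vehicle 1 was the lowest of all 9 samples and vehicle 2 the highest, so that vehicle values spanned 7.08-fold (limma log2 fold change -0.60 ± 0.65 SE, adjusted p = 0.593).

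Of 8 measured genes of cell death 5 rose, against 9.23% of all genes. Bax, a pore-forming member of the BCL-2 family, had 2147, 1179, 1578, 1560.4 and 2243 normalized counts in oxaliplatin samples 1 to 5, against 849.7, 885, 882 and 801 in vehicle samples 1 to 4. The vehicle samples lay close together and all oxaliplatin samples above them, with samples 1 and 5 the highest (limma log2 fold change 0.99 ± 0.17 SE, adjusted p = 0.00266). Pmaip1, the BH3-only protein NOXA, had 64.5, 17.6, 38.5, 28.4 and 71.7 normalized counts in oxaliplatin samples 1 to 5, against 10.8, 13.4, 3.23 and 4.03 in vehicle samples 1 to 4. Its groups did not overlap, but its counts are low and it fell short of the threshold after quantile normalization (limma adjusted p = 0.0866). As deposited, its values passed (limma log2 fold change 2.37 ± 0.56 SE, adjusted p = 0.0134).

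Trp53inp1, a p53-induced nuclear protein of autophagy and cell death, had 183, 196, 262, 309.7 and 245 normalized counts in oxaliplatin samples 1 to 5, against 94.4, 86.0, 62.4 and 114 in vehicle samples 1 to 4. Every oxaliplatin sample lay well above every vehicle sample (limma log2 fold change 1.42 ± 0.21 SE, adjusted p = 0.00142). Zmat3, a zinc finger protein that binds RNA, had 281, 258, 330.2, 318 and 327 normalized counts in oxaliplatin samples 1 to 5, against 117, 132, 139.8 and 195 in vehicle samples 1 to 4. The oxaliplatin samples lay within 1.28-fold of each other, the narrowest span of oxaliplatin values among the 12 genes that rose (limma log2 fold change 1.07 ± 0.17 SE, adjusted p = 0.00182). Phlda3, which blocks AKT at the membrane, had 226, 218, 339.9, 226 and 596 normalized counts in oxaliplatin samples 1 to 5, against 142, 91.6, 138 and 218 in vehicle samples 1 to 4. Its lowest oxaliplatin value exceeded the highest vehicle value by less than 1 normalized count, and it passed in 3 of the 9 fits that each leave out a sample, those without oxaliplatin 1, oxaliplatin 2 or vehicle 4 (limma log2 fold change 1.07 ± 0.32 SE, adjusted p = 0.0473).

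Perp, a membrane protein of desmosomes and cell death, had 10827, 3331, 5370.5, 7803 and 9249 normalized counts in oxaliplatin samples 1 to 5, against 4564, 5543, 4125 and 4091 in vehicle samples 1 to 4. Oxaliplatin 2 was the lowest of all samples and oxaliplatin 1, 4 and 5 lay above every vehicle sample, and the test did not pass (limma log2 fold change 0.57 ± 0.30 SE, adjusted p = 0.248). It passed without oxaliplatin 2 (log2 fold change 0.82, limma adjusted p = 0.0111). Aen, a nuclease of apoptosis, had 964 to 1367 normalized counts in oxaliplatin samples, against 986 to 1137 in vehicle samples, with an interval of -0.15 to 0.38. Ei24, an endoplasmic reticulum protein of autophagy, had 367 to 468 normalized counts in oxaliplatin samples, against 386 to 569.8 in vehicle samples, with an interval of -0.52 to 0.09, and 2 oxaliplatin samples lay below every vehicle sample.

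Among death receptors and the secreted factor Gdf15, 2 of 4 rose, against 9.23% of all genes. Fas, the receptor for FAS ligand, had 1046, 529, 646, 915 and 815 normalized counts in oxaliplatin samples 1 to 5, against 392, 531, 525 and 502 in vehicle samples 1 to 4. Oxaliplatin 2 lay within the vehicle range and the other 4 above it (limma log2 fold change 0.67 ± 0.18 SE, adjusted p = 0.0297). Fas did not pass without oxaliplatin 4, oxaliplatin 5 or any single vehicle sample, with limma adjusted p of 0.0553 to 0.0879. Eda2r, the receptor for ectodysplasin A2, had 47.8, 52.0, 147, 91.8 and 119 normalized counts in oxaliplatin samples 1 to 5, against 26.3, 41.3, 39.8 and 26.2 in vehicle samples 1 to 4. Oxaliplatin 1 and 2 lay just above the vehicle samples and oxaliplatin 3 far above (limma log2 fold change 1.33 ± 0.35 SE, adjusted p = 0.0232). Eda2r did not pass without oxaliplatin 3, 4 or 5 or vehicle 1 or 4, with limma adjusted p of 0.0540 to 0.0609.

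Tnfrsf10b, the TRAIL receptor, had 114, 124, 171, 111 and 126 normalized counts in oxaliplatin samples 1 to 5, against 90.8, 89.4, 111 and 115 in vehicle samples 1 to 4. Oxaliplatin 3 was the highest, and oxaliplatin 1 and 4 lay below vehicle 4 (limma log2 fold change 0.34 ± 0.18 SE, adjusted p = 0.25). Gdf15, a stress hormone of the TGF-beta family, had 78.9, 29.9, 59.6, 43.1 and 76.2 normalized counts in oxaliplatin samples 1 to 5, against 4.78, 22.3, 26.9 and 30.3 in vehicle samples 1 to 4. Oxaliplatin 2 lay below vehicle 4 and the other 4 oxaliplatin samples above every vehicle sample, and the test missed the threshold (limma log2 fold change 1.57 ± 0.50 SE, adjusted p = 0.0511). It passed without oxaliplatin 2 (adjusted p = 0.0277) or vehicle 4 (adjusted p = 0.0484), and with a pseudocount of 8 (log2 fold change 1.22, limma adjusted p = 0.0414).

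Of 6 genes of metabolism and repair, Sesn2 and Polk rose, against 9.23% of all genes. Sesn2, a leucine-sensing inhibitor of mTORC1, had 90.8, 96.0, 116, 117 and 177 normalized counts in oxaliplatin samples 1 to 5, against 66.9, 46.9, 73.1 and 63.5 in vehicle samples 1 to 4. Every oxaliplatin sample lay above every vehicle sample (limma log2 fold change 0.90 ± 0.23 SE, adjusted p = 0.021), and the limma adjusted p was 0.0503 without oxaliplatin 5 and 0.0711 without vehicle 2. Its relative Sesn1 had 4883, 2874, 3161, 3346 and 4061 normalized counts in oxaliplatin samples 1 to 5, against 2973, 4075, 3567 and 3217 in vehicle samples 1 to 4, where oxaliplatin 1 was highest and oxaliplatin 2 lowest (limma log2 fold change 0.07 ± 0.16 SE, adjusted p = 0.816). The log2 ratio of Sesn2 to Sesn1 averaged -4.94 ± 0.463 in oxaliplatin samples and -5.77 ± 0.432 in vehicle samples (SD, n = 5 and n = 4). This difference of 0.83 had an exact permutation p of 0.0397 and an adjusted p of 0.0529, which did not pass. The adjusted p was 0.0381 without oxaliplatin 1 and 0.0317 after quantile normalization. The sestrin pair too was chosen after its values were seen, so these p-values are descriptive and cannot decide whether the sestrins differ.

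Polk, a DNA polymerase that copies past damaged bases, had 168, 148, 234, 178 and 239 normalized counts in oxaliplatin samples 1 to 5, against 147, 105, 119 and 97.8 in vehicle samples 1 to 4. The groups were apart by less than 1 normalized count between oxaliplatin 2 and vehicle 1 (limma log2 fold change 0.71 ± 0.19 SE, adjusted p = 0.0275). Polk did not pass without oxaliplatin 3 or 5 or vehicle 2, 3 or 4, with limma adjusted p of 0.0650 to 0.0804. Ddit4, an inhibitor of mTORC1 also known as REDD1, had 1115, 196, 422, 562 and 1185 normalized counts in oxaliplatin samples 1 to 5, against 148, 189, 268 and 421 in vehicle samples 1 to 4. Values spanned 6.06-fold in oxaliplatin samples, with samples 1 and 5 far above the rest and sample 2 within the vehicle range (limma log2 fold change 1.27 ± 0.56 SE, adjusted p = 0.18). Without oxaliplatin 2 it passed (log2 fold change 1.66, limma adjusted p = 0.0315). Tigar, a phosphatase that turns glucose flux away from glycolysis, had 1079.7 to 2271 normalized counts in oxaliplatin samples, against 1111 to 1302 in vehicle samples, and Rrm2b, the p53-inducible subunit of ribonucleotide reductase, had 235 to 381 normalized counts in oxaliplatin samples, against 284 to 440.4 in vehicle samples. Oxaliplatin 1 was the highest Tigar value by a wide margin, and neither gene passed (limma adjusted p = 0.502 for Tigar and 0.346 for Rrm2b).

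**Figure D3:**
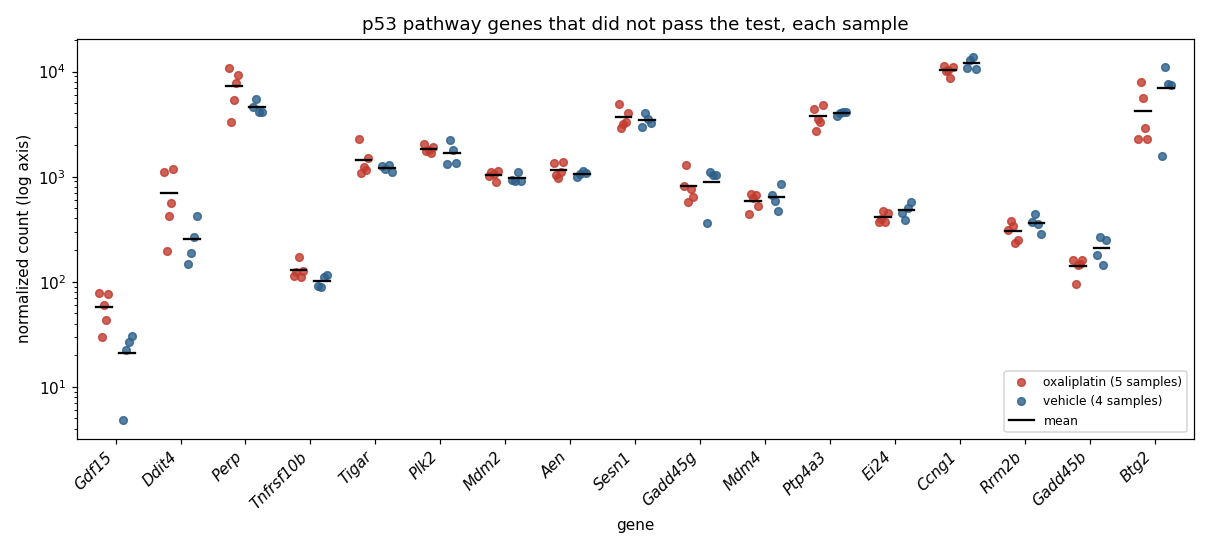
Normalized counts on a log axis (y) of the 17 genes that did not pass (x), with red points for the 5 oxaliplatin samples, blue points for the 4 vehicle samples and black bars for group means. The groups overlap for all 17, closely for Mdm2, Aen and Sesn1 and with wide scatter for Btg2, Ddit4 and Perp.

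Over all 30 genes, oxaliplatin 2 was the lowest of its group for 16 and the highest for 4, oxaliplatin 4 was the lowest for 7, and oxaliplatin 1 and 5 were the highest for 10 each. Of the 12 genes that rose, oxaliplatin 2 was the lowest of its group for 9 and oxaliplatin 1 for the other 3. Oxaliplatin 5 was the highest for 6. Oxaliplatin 2 also had the lowest proliferation score of its group, -0.04, against 0.77 to 1.87 in the other 4. A score here is the mean over a marker list of log2 values centred on each gene's mean over all samples. The atrial marker score was -3.69, 3.20, 0.95, 2.73 and -1.57 in oxaliplatin samples 1 to 5, and ranged from -2.12 to 2.45 in vehicle samples. Oxaliplatin 4, also high in this score, was the lowest of its group for 0 of the 12 genes that rose and the highest for 2. A link between the atrial score and the order of samples was not tested. With the atrial score as a covariate 14 genes of the list rose, the 12 with Gdf15 (limma adjusted p = 0.00513) and Ddit4 (adjusted p = 0.0201). Without the 3 samples of highest atrial score (oxaliplatin 2, oxaliplatin 4 and vehicle 1) 13 rose and 3 fell. Gdf15 and Perp rose there and Phlda3 did not pass, and Gadd45g (log2 fold change -0.66, limma adjusted p = 0.0181) and Btg2 (-1.47, adjusted p = 0.0267) fell along with Gadd45a.

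**Figure D4:**
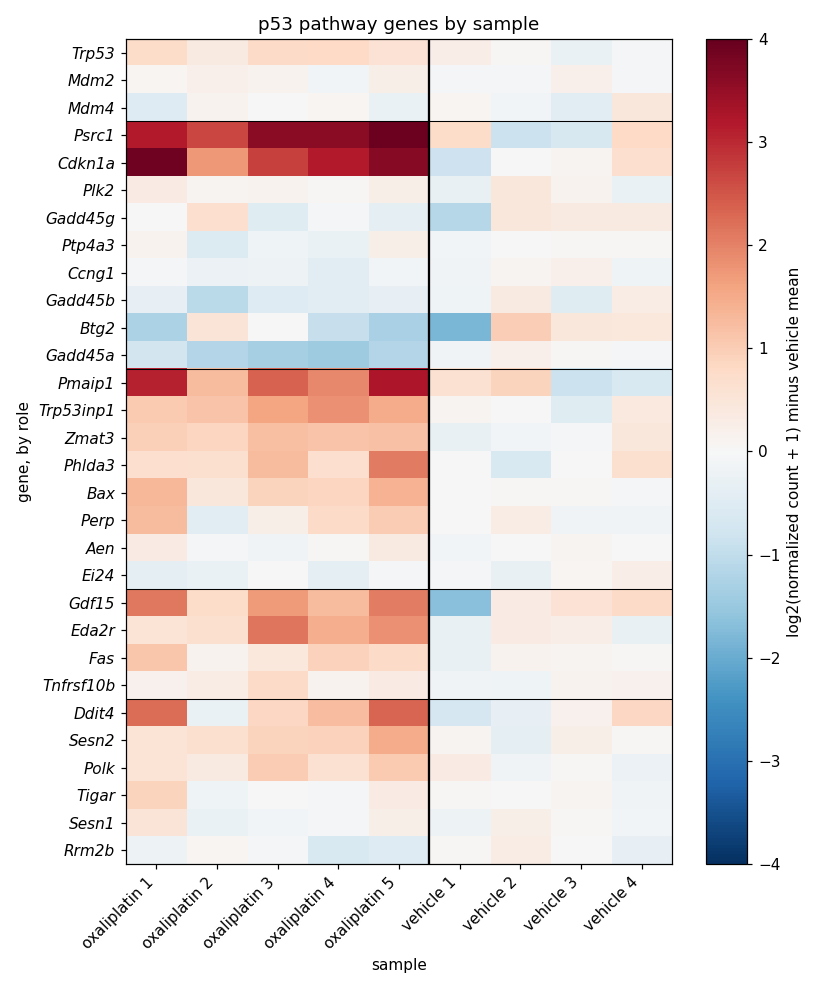
Log2(normalized count + 1) minus the vehicle mean for the 30 measured genes (rows, by role) in each sample (columns, oxaliplatin 1 to 5 left of vehicle 1 to 4), with red for values above and blue for values below the vehicle mean. Psrc1, Cdkn1a and Pmaip1 are red in all 5 oxaliplatin samples and palest in oxaliplatin 2, and Gadd45a is blue in all 5.

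Markers of other cell types were summed and scored in the same samples. Of endothelial markers 25% rose, and of fibroblast and macrophage markers 12.5% each, against 9.23% of all genes tested. Over all genes 5.03% fell. Erythroid markers had a median log2 fold change of -2.79, with a summed level of 7842 to 358240.0 normalized counts in oxaliplatin samples and 221400.0 to 570590.0 in vehicle samples, and 0 of 8 passed in limma (6 at an unadjusted p under 0.05). Oxaliplatin 3 gave the upper end of the oxaliplatin range. Its erythroid score was 2.04, against -3.12 to -1.03 in the other oxaliplatin samples and 0.68 to 1.76 in vehicle samples. Apart from oxaliplatin 3 the score followed the groups, so a covariate built on it overlaps with treatment. With the erythroid score as a covariate 9 genes of the list rose. Phlda3 (log2 fold change 1.27, limma adjusted p = 0.112), Sesn2 (0.97, adjusted p = 0.0885) and Fas (0.63, adjusted p = 0.163) did not pass, though their fold changes stayed close to or above the 1.07, 0.90 and 0.67 found without the covariate. Endothelial markers had a median log2 fold change of 0.43, with summed levels of 19351 to 28088 and 14651 to 15840.0 normalized counts in oxaliplatin and vehicle samples, and 2 of 8 rose, Pecam1 (log2 fold change 1.33) and Vwf (1.34). The median was 0.62 for 8 fibroblast markers, of which Postn rose (log2 fold change 2.44), and -0.38 for 12 cardiomyocyte markers, of which 3 fell. Of 8 macrophage markers Cd68 rose (log2 fold change 1.21) and Cd163 fell (-1.24), and of 3 measured lymphocyte markers Cd79a (-3.04) and Cd79b (-2.18) fell. Cd4, the remaining lymphocyte marker, went the other way and did not pass (log2 fold change 0.52, limma adjusted p = 0.318). Atrial markers summed to 29185 to 855850.0 normalized counts in oxaliplatin samples and 14515 to 394960.0 in vehicle samples. These sums depend heavily on Nppa, which had 20847 normalized counts in oxaliplatin 5 and 10826 in vehicle 3, the samples with the lowest sums. The markers did not move as one, since oxaliplatin 1 had 35514 normalized counts of Nppa but 70.5 of Myl7. The cardiomyocyte markers, which define the labelled tissue, were above 0 in every sample. The part of proliferating, endothelial, fibroblast or blood cells in the changes of the p53 target genes was not tested. The erythroid covariate cannot settle the part of blood, because its score nearly follows the groups.

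A second list held further genes listed as p53 targets, and whether p53 controls each of them in mouse was not tested. Of its 35 genes 30 were tested, of which 5 rose and 1 fell (16.7% rose, against 9.23% of all genes), with a median log2 fold change of 0.10. Ckap2, a spindle protein, had 183, 81.0, 407, 230.0 and 379 normalized counts in oxaliplatin samples 1 to 5, against 21.5, 4.47, 7.53 and 9.08 in vehicle samples 1 to 4. Its rise (limma log2 fold change 4.45 ± 0.50 SE, adjusted p = 8.39e-04) and that of Gtse1, a microtubule-binding protein that restrains p53 in G2 (limma log2 fold change 4.13 ± 0.64 SE, adjusted p = 0.00249), were the largest of this second list, and both genes belong to dividing cells as well. Pidd1, a scaffold that activates caspase-2, had 44.2 to 111 normalized counts in oxaliplatin samples, against 20.3 to 30.2 in vehicle samples. No overlap was seen between the groups (limma log2 fold change 1.43 ± 0.31 SE, adjusted p = 0.00893). Abhd4, a lipase, rose by 0.52 on the log2 scale (limma adjusted p = 0.0113), but had an adjusted p of 0.0957 once the erythroid score was a covariate. Dram1, a lysosomal protein of autophagy, also rose (log2 fold change 0.88, limma adjusted p = 0.0137), and Dglucy fell (-0.50, adjusted p = 0.0242). The nucleotide excision repair genes Ddb2 (log2 fold change -0.29) and Xpc (-0.16) did not pass (limma adjusted p = 0.419 and 0.42), nor did Ppm1d, the phosphatase that ends p53 signalling (0.11, adjusted p = 0.823).

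Another list held genes of damage sensing and its checkpoint kinases, together with the kinases and phosphatases that set entry into mitosis (Wee1, Pkmyt1 and the Cdc25 genes). Of 28 tested, 2 rose (7.14%, against 9.23% of all genes), and the median log2 fold change was -0.04. The 2 that rose belong to the mitotic entry genes and not to the damage sensors. They were the phosphatases Cdc25b, with 188 to 451 normalized counts in oxaliplatin samples, against 109.7 to 159 in vehicle samples (limma log2 fold change 0.98 ± 0.24 SE, adjusted p = 0.0179), and Cdc25c. Cdc25c had 43.0, 1.86, 38.1, 40.9 and 72.9 normalized counts in oxaliplatin samples 1 to 5, against 4.78, 0, 0 and 4.03 in vehicle samples 1 to 4. It was listed at 0 in 2 vehicle samples, and oxaliplatin 2 lay below the other 2 (limma log2 fold change 3.56 ± 1.01 SE, adjusted p = 0.0337). Neither passed without vehicle 2 or without vehicle 3 (adjusted p = 0.0514 and 0.0661 for Cdc25b, 0.0875 and 0.0915 for Cdc25c), and Cdc25c did not pass without oxaliplatin 1, 3, 4 or 5 either (adjusted p = 0.0622 to 0.094). The kinase genes Atm (-0.46), Atr (-0.07) and Chek2 (0.45) did not pass (limma adjusted p = 0.118, 0.817 and 0.254). Atm values did not overlap, with 70.5 to 85.0 normalized counts in oxaliplatin samples and 87.1 to 134 in vehicle samples. Topbp1 did not overlap in the higher direction (105 to 181 against 78.2 to 99.2, limma adjusted p = 0.0706). Groups did not overlap for 2 genes of this list higher and 1 lower, against 8.99% and 5.93% of all genes. Chek1 was not analysed here.

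Among 13 tested genes of other cyclin-dependent kinase inhibitors and senescence, 2 rose and 1 fell (15.4% rose, against 9.23% of all genes). Cdkn3, a phosphatase of CDK1 and CDK2 found in dividing cells (limma log2 fold change 2.96 ± 0.56 SE, adjusted p = 0.00491), and the chromatin protein Hmgb2 (limma log2 fold change 0.92 ± 0.22 SE, adjusted p = 0.0173) rose. Cdkn1c, the p21 relative p57, had 70.8 to 129 normalized counts in oxaliplatin samples, against 104 to 267 in vehicle samples, and fell by 0.86 on the log2 scale (limma adjusted p = 0.045). Of the 9 fits that each leave out a sample, it passed only in those without oxaliplatin 2 or vehicle 2, and the limma adjusted p was 0.0663 to 0.152 in the others. Hmgb2 did not pass without vehicle 4 (adjusted p = 0.0575). Cdkn1b, the relative p27, had 228 to 396 normalized counts in oxaliplatin samples, against 299 to 372 in vehicle samples and did not pass (log2 fold change -0.16, adjusted p = 0.568). Cdkn2a, the source of the senescence marker p16, was not analysed here.

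Several genes of the list also answer to regulators other than p53. Sesn2, Ddit4 and Gdf15 are known targets of ATF4 as well. Of 13 tested genes of an ATF4 list, which includes these 3, 4 rose (30.8%, against 9.23% of all genes): Asns (log2 fold change 1.07), Trib3 (1.26), Mthfd2 (1.24) and Sesn2. Trib3 did not pass without vehicle 3 (limma adjusted p = 0.0625) or vehicle 4 (adjusted p = 0.0539). Atf4 itself had 1100.2 to 1539 normalized counts in oxaliplatin samples, against 1029 to 1243 in vehicle samples (log2 fold change 0.12, limma adjusted p = 0.553), and Ddit3, its target CHOP, had a log2 fold change of -0.17 (adjusted p = 0.428). Ddit4 and Sesn1 are known to answer to glucocorticoids or FoxO factors. Of 15 genes of such a list 13.3% rose, against 9.23% of all genes, and the median log2 fold change was 0.01. The 2 that rose were Fkbp5 (limma log2 fold change 1.77 ± 0.31 SE, adjusted p = 0.00465) and Tsc22d3 (limma log2 fold change 0.61 ± 0.17 SE, adjusted p = 0.0287), and Fbxo32 fell (limma log2 fold change -0.59 ± 0.13 SE, adjusted p = 0.01). Tsc22d3 did not pass without oxaliplatin 3, 4 or 5 or vehicle 1 or 3 (limma adjusted p = 0.0583 to 0.0928).

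**Figure D5:**
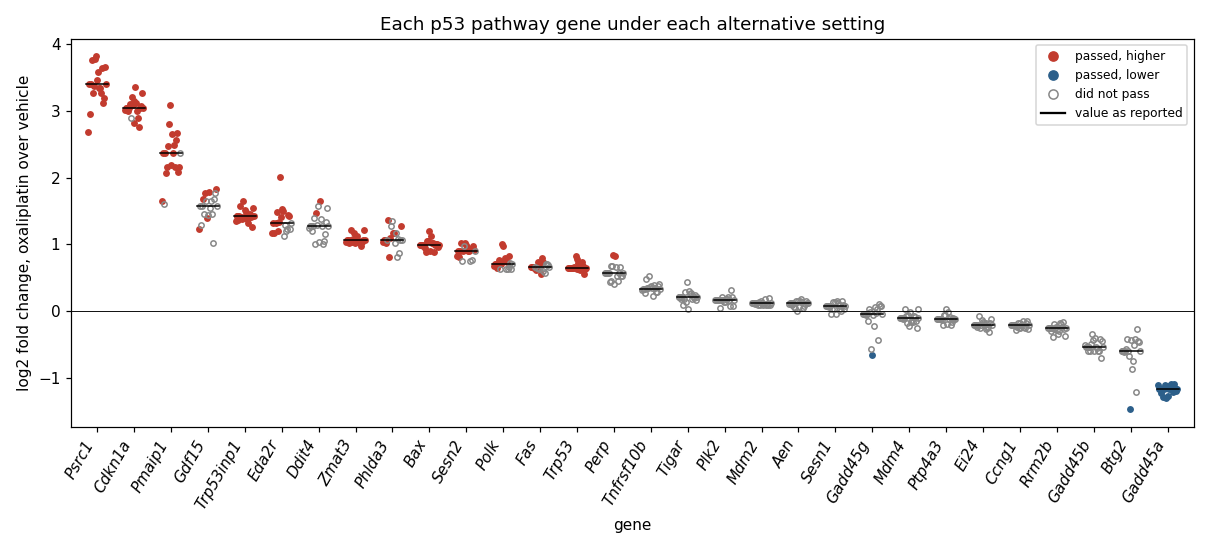
Log2 fold change of oxaliplatin over vehicle (y) for the 30 measured genes (x) under each of 20 alternative settings, one point a setting, filled where the gene passed and open where it did not, with a bar for the value as reported. Psrc1, Trp53inp1, Zmat3, Bax, Trp53 and Gadd45a are filled throughout, while Phlda3, Fas, Eda2r, Polk and Sesn2 hold both kinds of point.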

How the data were processed

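The authors deposited one signal for each gene in each sample, a normalized count, from SMARTer libraries of heart RNA, per the labels. STAR 2.5.1a, Partek and DESeq2 appear in the submitters' processing notes without a stated role. The labels state no build, annotation or strandedness, so overlapping genes may share reads. Totals per sample were 29.4 M to 36.95 M normalized counts. Division by the step size of low values gave an estimated 28.5 M to 36.2 M reads, but 73.1% to 75.7% of values between 1 and 1000 reads lay within 0.02 of a whole read. Too few values were whole for a count test, so values were compared on a log scale. The lowest maximum of any gene was 40.6, so low genes are missing from the table.

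Titles gave the groups. Nothing in the labels says which samples came from separate animals, so the p-values rest on a sample-to-sample spread that could be technical. The test was two-sided, on log2(normalized count + 1), in limma 3.58.1 (R 4.3.3; trend, robust), and left out genes whose mean over the 9 samples was under 10. All 30 measured genes passed this filter. The 4 ratios within samples were chosen after seeing the data. Members, lists and alternatives were chosen with earlier results of these data known. All list members are described. Of each other list, up to 4 genes that passed with the smallest p were eligible for naming, and others named were chosen after their values were seen. Only the limma step was tested on simulated data, and the ratios, Dixon's criterion, the decamer search and the read estimate were not.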

Additional observations from a re-analysis of the deposited data

Results flagged for a closer look

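In 60 groups of samples, each gene in each treatment, 2 samples lay far from the rest of their group by Dixon's criterion, which chance meets in about 1 in 20 groups. Gadd45g had 363 normalized counts in vehicle 1, against 1031 to 1098 in the other vehicle samples. Tnfrsf10b had 171 normalized counts in oxaliplatin 3, against 111 to 126 in the other oxaliplatin samples.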

How the results depend on the processing

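Of 595 refits of single genes of the list, 529 kept direction and side of the threshold, 41 lost the call, 12 gained it and 13 changed sign, none of them for a gene that passed. Changes of sign were Mdm4 with array weights (log2 fold change 0.025), Sesn1 with array weights (-0.046), Aen with the erythroid score (-0.0070), Ptp4a3 without the 3 samples high in atrial markers (0.035) and Gadd45g with the replicate block (0.028). Leaving out single samples gave -0.25 to 0.035 for Mdm4, -0.043 to 0.15 for Sesn1 and -0.43 to 0.10 for Gadd45g. Replicate numbers occur in both groups, and the labels state no pairing. Deviations of same-numbered samples correlated by -0.273, -0.064, -0.093 and 0.250. Such weak correlations cannot show whether the numbers pair the samples. With the replicate block 8 genes of the list rose, with Cdkn1a at a log2 fold change of 2.89 and an adjusted p of 0.0713, while 0 checkpoint genes rose and 0 further targets and 0 senescence genes fell. At an adjusted p under 0.01, 6 genes of the list rose, with 3 further targets, 0 checkpoint genes and 1 senescence gene higher, 0 further targets and 0 senescence genes lower, and 562 higher and 195 lower of all genes. Without 1 sample the list had 7 to 15 higher, the further targets 5 to 7 higher and 0 to 2 lower, the checkpoint genes 0 to 3 higher, the senescence list 1 to 3 higher and 0 to 1 lower, and all genes 789 to 1505 higher and 321 to 873 lower. Without the 3 samples high in atrial markers 3 genes of the list and 0 of the senescence list fell. Array weights gave 8 further targets, 4 checkpoint genes and 4 senescence genes higher, 2 further targets and 0 senescence genes lower, and 1975 higher and 1566 lower of all genes. Further targets that fell numbered 2 after quantile normalization, 2 with the atrial score and 0 without trend and robust moderation. Checkpoint genes that rose numbered 1 at a mean of at least 100 and 1 after quantile normalization, where 1 fell, and senescence genes 1 at a mean of at least 100 higher, with 0 lower without trend and robust moderation and 0 with the erythroid score. All genes numbered 1052 lower with the atrial score and 806 higher and 257 lower with the erythroid score. The cause of these shifts was not tested.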

Other observations

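Btg2, Atf3 and Cxcl1, chosen after their values were seen, were low in vehicle 1. Btg2 had 1561 normalized counts in vehicle 1 and 7450 to 11051 in vehicle samples 2 to 4, Atf3 had 102 and 419 to 589.8 in these samples, and the chemokine Cxcl1 had 45.4 and 441 to 529. In oxaliplatin samples Cxcl1 ranged from 45.7 in sample 5 to 520.5 in sample 2, and Btg2 from 2278 in sample 5 to 7940.5 in sample 2. Trp53i11, on the second list of p53 targets and named after its values were seen, had 2004, 369, 980.2, 1120.0 and 2062 normalized counts in oxaliplatin samples 1 to 5, against 489, 409, 495 and 562 in vehicle samples 1 to 4, with oxaliplatin 1 and 5 high and oxaliplatin 2 below every vehicle sample (limma log2 fold change 1.19 ± 0.47 SE, adjusted p = 0.138).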
